A study of Mus musculus with 8 samples.

Results

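The chromatin of 10 heat shock genes was examined in injured mouse retinal ganglion cells (RGCs): Hspa1a, Hspa1b, Hspa1l, Hspa8, Hspa5, Hsp90aa1, Hsph1, Dnajb1, Hspb1 and Hsf1. They were chosen by a measured value, the fold of an open region 4193 bp from Hspa1a, whose rank differed furthest downward of all 69493 regions compared when Ezh2 was set against GFP, and by membership of the heat shock family. Of 189914 regions in the series, 41 lay in these genes or within 10 kb of them, and 20 of the 41 held a peak in all 8 libraries. The remaining 21 regions were called in 1 to 7 libraries. Hspa1a, Hspa1b and Hspa1l are neighbours on chromosome 17 and were treated as a single locus with 7 regions.

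Heat shock proteins are chaperones, which hold or refold unfolded proteins. The transcription factor Hsf1 drives the inducible members after heat or other protein stress. Their promoters are kept open with a paused RNA polymerase, and on activation the polymerase runs into the gene and the nucleosomes of the gene body are lost. Hspa5 differs in that it belongs to the endoplasmic reticulum and answers to the unfolded protein response.

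The promoters are shown because most regions described here sit on them, and because those of Hspa1a and Hspa1b are nearly the same sequence. Of the 10 genes, 7 matched the promoter table of RefSeq (build GRCm38.p6), and Hspa8, Hsp90aa1 and Hsf1 did not. The windows searched ran from 250 bases before to 50 bases after the start site, and the 250 bases before it are printed 5′ to 3′ along the gene for 6 genes. Hsph1 and Dnajb1 have 2 start sites each in the table, of which the first is shown. Capitals mark GAANNTTC and TTCNNGAA, arrangements of the heat shock element to which Hsf1 binds, both of which read alike on the 2 strands. GAANNTTC was found in 7.86% and TTCNNGAA in 8.52% of all 32851 promoter windows. For Hspa5 capitals mark instead CCAAT and CCACG with 9 bases between, the endoplasmic reticulum stress element, found in 0.119% of all windows on either strand. A match of letters is a description and not a binding site.
Hspa1a (chr17:34972157-34972406, minus strand): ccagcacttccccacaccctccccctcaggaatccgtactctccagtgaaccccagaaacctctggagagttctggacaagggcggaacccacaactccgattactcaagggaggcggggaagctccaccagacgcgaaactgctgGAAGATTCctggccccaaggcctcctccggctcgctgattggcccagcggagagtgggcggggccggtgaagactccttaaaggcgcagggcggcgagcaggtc
Hspa1b (chr17:34959239-34959488, minus strand): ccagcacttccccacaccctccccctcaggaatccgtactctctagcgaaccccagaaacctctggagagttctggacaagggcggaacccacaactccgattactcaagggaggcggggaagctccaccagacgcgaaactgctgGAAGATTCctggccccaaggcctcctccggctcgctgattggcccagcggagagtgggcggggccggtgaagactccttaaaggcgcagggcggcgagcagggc
Hspa5 (chr2:34771840-34772089, plus strand): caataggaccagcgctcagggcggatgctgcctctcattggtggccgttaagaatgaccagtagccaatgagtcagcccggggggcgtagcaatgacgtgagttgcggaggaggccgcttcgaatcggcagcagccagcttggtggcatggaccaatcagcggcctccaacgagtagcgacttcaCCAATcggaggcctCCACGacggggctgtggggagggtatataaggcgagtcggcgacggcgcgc
Hspb1 (chr5:135887669-135887918, plus strand): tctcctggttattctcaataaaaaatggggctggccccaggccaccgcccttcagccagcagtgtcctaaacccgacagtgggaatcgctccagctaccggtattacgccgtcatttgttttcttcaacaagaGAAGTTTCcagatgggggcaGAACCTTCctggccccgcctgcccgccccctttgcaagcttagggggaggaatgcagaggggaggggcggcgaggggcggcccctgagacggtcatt
Hsph1 (chr5:149636337-149636586, minus strand): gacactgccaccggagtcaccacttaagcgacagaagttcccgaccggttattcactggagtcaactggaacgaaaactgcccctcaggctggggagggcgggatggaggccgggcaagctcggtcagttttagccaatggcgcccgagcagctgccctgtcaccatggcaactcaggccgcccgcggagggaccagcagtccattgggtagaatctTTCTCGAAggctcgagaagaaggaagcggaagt
Dnajb1 (chr8:83607925-83608174, plus strand): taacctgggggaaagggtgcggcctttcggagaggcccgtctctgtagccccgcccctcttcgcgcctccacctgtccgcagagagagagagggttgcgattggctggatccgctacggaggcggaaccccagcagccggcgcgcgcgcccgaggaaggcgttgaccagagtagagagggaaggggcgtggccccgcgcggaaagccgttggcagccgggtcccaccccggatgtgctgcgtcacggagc

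GAANNTTC began 104 bases before the start site in both Hspa1a and Hspa1b, and 117 and 97 bases before it in Hspb1. Hsph1 held TTCNNGAA 33 bases before its start site. After the start site Hsph1 also held TTCNNGAA at 36 bases and GAANNTTC at 41 bases, which overlap. Neither arrangement of letters was in the windows of Dnajb1, Hspa1l and Hspa5, and the element of Hspa5 began 65 bases before its start site. The windows of Hspa1a and Hspa1b differed at 4 of 300 bases. Reads from such copies cannot always be placed, and the peak names carry a mapping quality tag of 10, so values at these 2 genes are uncertain to that extent.

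Open chromatin was measured by ATAC-seq, in which a transposase cuts accessible DNA and adds sequencing adapters. All mice were adult C57BL/6J, received AAV2 into the vitreous and had the optic nerve crushed (ONC) 2 weeks later. The virus carried GFP as the control (3 samples), Ezh2, the methyltransferase of Polycomb repressive complex 2 (3 samples), or Ezh2-Y726D, its catalytically dead form (2 samples). CD90.2-positive cells were sorted 3 days after ONC as RGCs, with 50000 cells per library, and no promoter driving the virus is named in the labels. Whether replicates came from separate animals was not stated, so p-values measure the spread between these samples. The labels gave no batch.

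The deposited lists held from 112939 to 135895 peaks and no read totals, so depth is unknown. Each peak carries a fold, the summit pileup over the local background of the same library, each with 1 read added. From the fold and the −log10 p-value of a peak, its summit pileup in whole reads and its local background could be recovered within 0.001 of the deposited −log10 p-value for every peak in all 8 lists. Each local background above the genome-wide level was a multiple of 0.02 reads, and the genome-wide level itself was between 2.39 and 3.74 reads per library. MACS2 usually counts the local background over a window wider than the peak (the setting is not given in the sources used here), which includes the reads of the peak and, at Hspa1, those of neighbouring peaks.

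The sorted cells were checked against marker genes. Of 12 RGC markers, 11 or 12 had a peak at a gene end in every library. Other retinal cells had peaks at most of their markers as well. These were 9 of 10 for Müller glia in every list, 7 or 8 of 8 for amacrine cells and 6 to 8 of 8 for bipolar cells. Peaks at marker genes thus did not set RGCs apart from these cells. T cells, which also carry CD90, had peaks at 11 or 12 of 12 marker genes in the GFP lists, at 12 in the Ezh2 lists and at 5 in both Ezh2-Y726D lists. Peaks were missing from both Ezh2-Y726D lists at Cd3g, Cd8a, Cd8b1, Lck, Lat, Zap70 and Il7r. Microglia and macrophages had peaks at 6 to 10 of 12 marker genes in GFP, 9 or 10 with Ezh2 and 3 with Ezh2-Y726D, with Aif1 at 0 in all 8 lists. Rods had peaks at 9 of 10 markers in GFP, 7 or 8 with Ezh2 and 8 or 9 with Ezh2-Y726D. The samples are bulk libraries, so fewer cells of a type and less signal per cell cannot be told apart. The part of these other cells in the results below was not tested.

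The region that led to the choice (chromosome 17, 34964419 to 34965166, GRCm38) lies between Hspa1b and Hspa1a and is described without a test. Its fold was 9.25, 10.3 and 8.94 with GFP, 3.34, 4.55 and 2.17 with Ezh2, and 9.63 and 9.39 with Ezh2-Y726D. Within their own lists these were percentiles 91.1, 92.2 and 89.6 with GFP, 13.0, 45.3 and 0.667 with Ezh2, and 89.4 and 89.3 with Ezh2-Y726D. By fold the Ezh2 libraries stood alone, far below both other groups.

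The parts of that fold told the groups apart in another way. The summit pileup was 102, 91 and 100 reads in GFP, 43, 60 and 40 with Ezh2, and 41 and 51 with Ezh2-Y726D. Both Ezh2 and Ezh2-Y726D thus lay below every GFP library in pileup. The local background was 10.1, 7.92 and 10.3 reads in GFP, 12.2, 12.4 and 17.9 with Ezh2, and 3.36 and 4.54 with Ezh2-Y726D. Set over the genome-wide level of each library, the pileup averaged 30.7 ± 3.62 (SD, n = 3) with GFP, 14.4 ± 3.45 (n = 3) with Ezh2 and 16.8 ± 0.594 (n = 2) with Ezh2-Y726D, and the local background 2.94 ± 0.184, 4.21 ± 0.672 and 1.43 ± 0.0329. The summit therefore held fewer reads with both forms of Ezh2, and the fold of Ezh2-Y726D stayed near that of GFP beside a lower local background.

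The inducible Hsp70 genes Hspa1a and Hspa1b, the main heat-induced chaperones, and the testis-type Hspa1l, whose start faces that of Hspa1a, had open start sites in all 8 lists. At Hspa1b (34958982 to 34960347) the fold stood at percentiles 83.2, 78.2 and 77.3 with GFP, 56.1, 63.6 and 56.6 with Ezh2, and 92.7 and 92.6 with Ezh2-Y726D. The 3 groups did not overlap, with Ezh2 lowest and Ezh2-Y726D highest. At the region shared by Hspa1a and Hspa1l (34971894 to 34972807) the percentiles were 89.8, 89.0 and 89.7 with GFP, 71.6, 76.0 and 67.8 with Ezh2, and 93.5 and 90.1 with Ezh2-Y726D. Here too the Ezh2 libraries lay below all others, while Ezh2-Y726D lay just above GFP.

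In normal scores of the fold rank, which have a unit of 1 SD over all regions, Hspa1b differed by -0.77 ± 0.17 (SE) with Ezh2 against GFP, 0.70 ± 0.19 with Ezh2-Y726D against GFP and -1.47 ± 0.19 with Ezh2 against Ezh2-Y726D. The Hspa1a and Hspa1l region differed by -0.84 ± 0.17, 0.13 ± 0.19 and -0.97 ± 0.19. A region 3332 bp beyond the 3′ end of Hspa1b (34951816 to 34953097) differed by -0.99 ± 0.20, -0.26 ± 0.23 and -0.73 ± 0.23. The region 1394 bp beyond Hspa1l (34980622 to 34982525) showed none of this, with all 8 libraries between percentiles 89.6 and 93.7. No p is given at this locus, since its regions share background reads with the chosen region.

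**Figure D1:**
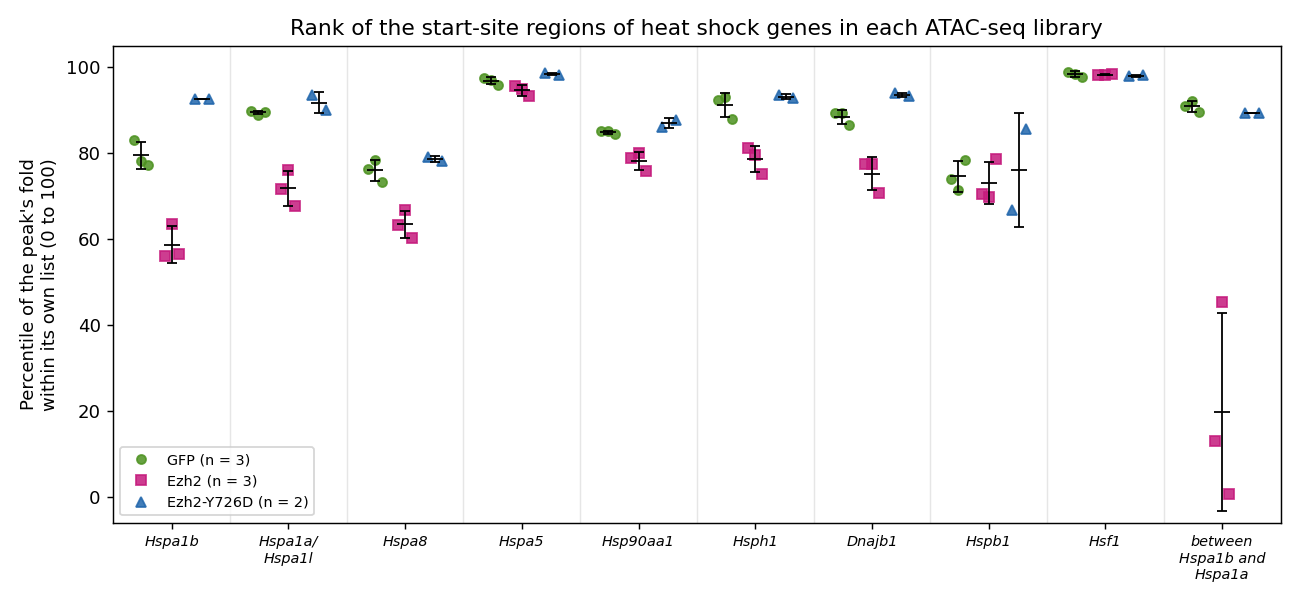
Percentile of the fold of each start-site region within its own peak list (y axis, 0 to 100) by gene (x axis), with a point per library and bars for the mean ± SD. At Hspa1b, Hspa1a and Hspa1l, Hspa8, Hspa5, Hsp90aa1, Hsph1 and Dnajb1 every Ezh2 library (squares) sits below every other library, and at Hspb1 and Hsf1 Ezh2 and GFP overlap. Outside the Hspa1 locus limma called 0 of 7 start sites in fold rank with Ezh2 against GFP. Of all gene ends 0.465% were called higher and 0.571% lower. The share of all regions in this order was not counted.

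Dnajb1, the Hsp40 partner that loads clients onto Hsp70, and Hsph1, the Hsp110 that exchanges its nucleotide, followed the same order. At Dnajb1 (chromosome 8, 83607563 to 83609055) the percentiles were 89.4, 89.4 and 86.7 with GFP, 77.6, 77.4 and 70.8 with Ezh2, and 94.0 and 93.3 with Ezh2-Y726D. At Hsph1 (chromosome 5, 149635553 to 149636996) they were 92.3, 93.2 and 88.1 with GFP, 81.1, 79.7 and 75.2 with Ezh2, and 93.6 and 92.8 with Ezh2-Y726D. The Ezh2 libraries did not overlap with either other group at these genes.

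Against Ezh2-Y726D, the fold rank fell with Ezh2 at Dnajb1 by 0.99 ± 0.19 (SE, limma adjusted p = 0.0086) and at Hsph1 by 0.81 ± 0.20 (adjusted p = 0.0262). Without Ezh2-Y726D replicate 1 the adjusted p was 0.0657 at Dnajb1 and 0.139 at Hsph1, and at Hsph1 it was also above 0.05 without Ezh2 replicate 2 (0.0517), without Ezh2 replicate 3 (0.0707) and without Ezh2-Y726D replicate 2 (0.1). Against GFP the differences with Ezh2 were -0.65 ± 0.17 at Dnajb1 (adjusted p = 0.0606) and -0.69 ± 0.18 at Hsph1 (adjusted p = 0.0597), and neither passed the threshold of 0.05. Neither passed it with Ezh2-Y726D against GFP, with 0.34 ± 0.19 (adjusted p = 0.302) and 0.11 ± 0.20 (adjusted p = 0.777).

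The constitutive Hsp70 Hspa8, the inducible cytosolic Hsp90 gene Hsp90aa1 and Hspa5 showed the order with smaller differences, none of which limma called. At Hspa8 (chromosome 9, 40799932 to 40801947) the percentiles were 76.4, 78.3 and 73.4 with GFP, 63.3, 66.7 and 60.3 with Ezh2, and 79.2 and 78.1 with Ezh2-Y726D. At Hsp90aa1 (chromosome 12, 110695544 to 110696999) they averaged 84.9 ± 0.423 with GFP (SD, n = 3), 78.3 ± 2.13 with Ezh2 (n = 3) and 87.0 ± 1.16 with Ezh2-Y726D (n = 2). At Hspa5 (chromosome 2, 34771341 to 34772722) they averaged 96.9 ± 0.816, 94.6 ± 1.28 and 98.5 ± 0.18. Ezh2 lay below GFP in every library at all 3, with differences of -0.47 ± 0.17, -0.33 ± 0.15 and -0.30 ± 0.16 (SE, limma adjusted p = 0.141, 0.275 and 0.355). Ranked by summit pileup in place of the fold, the differences at the 3 had the other sign (0.0705, 0.0537 and 0.0677).

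The small heat shock protein gene Hspb1 and the factor gene Hsf1 did not show the order. At Hspb1 (chromosome 5, 135887431 to 135889252) the percentiles ran from 71.5 to 78.5 with GFP, 69.8 to 78.7 with Ezh2 and 66.8 to 85.6 with Ezh2-Y726D. At Hsf1 (chromosome 15, 76476845 to 76478222, in a region that also covers an end of Bop1) all 8 libraries lay between 97.8 and 99.0. The groups overlapped at Hspb1, and at Hsf1 Ezh2 and GFP overlapped.

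Counted over the family without the chosen region, 19 regions had a peak in all 8 lists and were tested. In Ezh2 against GFP 0 were higher and 3 lower, where 1.59% and 2.84% of all 69493 regions were called higher and lower. The 3 were those of the Hspa1 locus given above, which share background reads with the chosen region, so counts at this locus are a description. In Ezh2-Y726D against GFP 1 was higher, the start site of Hspa1b, and 0 lower, where 3.55% and 4.65% of all regions were called. In Ezh2 against Ezh2-Y726D 0 were higher and 4 lower, where 7% and 6.96% were called, and the 4 were the start sites of Hspa1b, of Hspa1a and Hspa1l, of Hsph1 and of Dnajb1. Outside the Hspa1 locus limma thus called 0, 0 and 2 of 15 regions in the 3 comparisons, with 4, 1 and 8 at an unadjusted p under 0.05. The comparisons share samples and are not independent of each other.

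The median difference over the 19 regions was -0.21, 0.06 and -0.40 in the 3 comparisons, against 0.01, -0.01 and 0.02 over all regions. Over the 15 regions outside the Hspa1 locus it was -0.15, 0.06 and -0.13. The calls against GFP rested on the number of libraries. With Ezh2, 0 regions were called when any 1 of GFP replicates 1, 2 and 3 or Ezh2 replicates 1 and 3 was left out, and with Ezh2-Y726D the call at Hspa1b was lost when any 1 of the 8 libraries was left out. In Ezh2 against Ezh2-Y726D 1 region was called without Ezh2-Y726D replicate 1.

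The fold combines 2 quantities, so the summit pileup and the local background were compared separately, each on a log2 scale over the genome-wide level of its library. At Dnajb1 the summit pileup was 201, 202 and 220 reads in GFP, 206, 208 and 215 with Ezh2, and 173 and 198 with Ezh2-Y726D. The local background there was 21.9, 20.4 and 25.5 reads in GFP, 27.7, 29.1 and 35.2 with Ezh2, and 14.8 and 17.9 with Ezh2-Y726D. The pileups of Ezh2 and GFP overlapped, whereas the backgrounds fell into 3 separate groups.

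At Hsph1 the pileup was 182, 185 and 189 reads in GFP, 182, 182 and 186 with Ezh2, and 144 and 164 with Ezh2-Y726D. The local background was 18.0, 16.4 and 21.1 reads in GFP, 22.9, 24.2 and 28.3 with Ezh2, and 12.3 and 14.9 with Ezh2-Y726D. Again it was the surroundings of the start site, not its summit, that separated Ezh2 from GFP.

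At Hspa8 the local background was 29.0, 25.1 and 33.2 reads in GFP, 34.6, 34.6 and 41.9 with Ezh2, and 20.2 and 25.8 with Ezh2-Y726D, the highest of the family in every group. Its summit pileup ran from 195 to 222 reads in GFP, from 207 to 222 with Ezh2 and from 163 to 200 with Ezh2-Y726D. At Hspa1b the background was 10.5, 8.24 and 12.2 reads in GFP, 16.7, 15.8 and 21.7 with Ezh2, and 5.14 and 6.98 with Ezh2-Y726D. Relative to the genome-wide level, the background of Hspa1b averaged 3.19 ± 0.111 with GFP (SD, n = 3), 5.40 ± 0.648 with Ezh2 (n = 3) and 2.19 ± 0.0582 with Ezh2-Y726D (n = 2). Hspa1b had the largest difference of the 9 start-site regions, but its background shares reads with the chosen region, so this place is not independent of the choice.

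**Figure D2:**
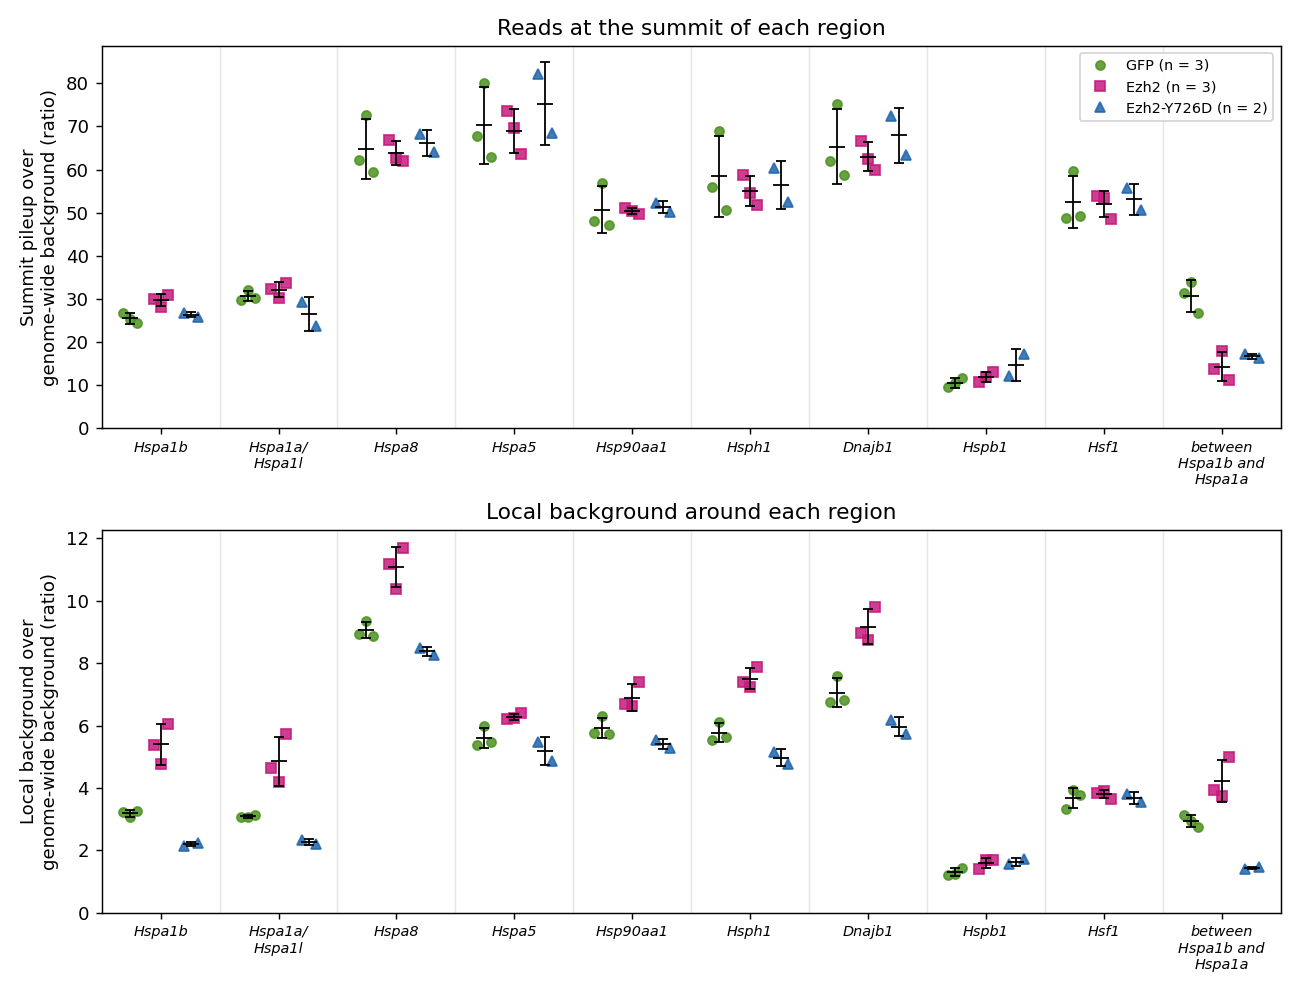
Summit pileup (top) and local background (bottom) of each start-site region, both as a ratio to the genome-wide background of the library, with a point per library and bars for the mean ± SD. The local background of Ezh2 (squares) is above GFP and Ezh2-Y726D at the start sites other than Hspb1 and Hsf1. Summit pileups of Ezh2 and GFP overlap except at Hspa1b. Start sites of the Hspa1 locus share background reads with the chosen region. The share of all regions in this order was not counted. Outside the Hspa1 locus limma called 5 of 7 start sites higher in local background with Ezh2 than with GFP, where 14.4% of all gene ends were. Against Ezh2-Y726D it called 5 of 7 higher with Ezh2, where 29.0% of gene ends were. The last column is the chosen region, where pileups are lower in both Ezh2 and Ezh2-Y726D.

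With Ezh2 against GFP, the local background was higher at Dnajb1 by 0.38 ± 0.07 on the log2 scale (SE, limma adjusted p = 6.13e-05), at Hsph1 by 0.38 ± 0.07 (adjusted p = 3.67e-05), at Hspa8 by 0.29 ± 0.07 (adjusted p = 0.000786), at Hspb1 by 0.30 ± 0.08 (adjusted p = 0.00335) and at Hsp90aa1 by 0.22 ± 0.07 (adjusted p = 0.0107). It was higher by 0.75 ± 0.07 at Hspa1b and by 0.64 ± 0.08 at Hspa1a and Hspa1l, with no p given. The differences at Hspa5 (0.17 ± 0.07, adjusted p = 0.0561) and Hsf1 (0.05 ± 0.07, adjusted p = 0.611) did not pass. The calls at Hsp90aa1 and Hspb1 were lost without the filter on low background, and that at Hsp90aa1 also without Ezh2 replicate 3, with limma adjusted p of up to 0.0977 and 0.138 over 11 alternatives, and Hspa5 passed without GFP replicate 2 (adjusted p = 0.031).

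Of the 7 start-site regions outside the Hspa1 locus, 5 were called higher and 0 lower in local background with Ezh2 against GFP, where 17.8% and 18.4% of the 37642 regions with enough background were called. With Ezh2-Y726D against GFP 1 was higher (Hspb1) and 2 lower (Hsph1 and Dnajb1), where 35.1% and 20.6% were called. With Ezh2 against Ezh2-Y726D 5 were higher and 0 lower, where 23.8% and 39.5% were called, and the 5 were all but Hspb1 and Hsf1. The median over the 7 was 0.29, -0.12 and 0.35, against 0.01, 0.05 and -0.07 over all regions. At the Hspa1 locus the background of both start-site regions was higher with Ezh2 and lower with Ezh2-Y726D than with GFP, the latter with differences of -0.54 at Hspa1b and -0.45 at Hspa1a and Hspa1l, given as a description.

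The 14 heat shock regions with enough background outside the Hspa1 locus include the 7 start sites. With Ezh2 against Ezh2-Y726D 6 were higher (42.9%) and 1 lower (7.14%), where 23.8% and 39.5% of all 37642 regions were called. With Ezh2-Y726D against GFP 2 were higher (14.3%) and 5 lower (35.7%), where 35.1% and 20.6% were. With Ezh2 against GFP 6 were higher (42.9%) and 3 lower (21.4%), where 17.8% and 18.4% were, so the share lower was near that of all regions. All 3 regions lower with Ezh2 were neighbours of Hsp90aa1, at 7925 bp (-0.28 ± 0.07, limma adjusted p = 0.00128), 6379 bp (-0.25 ± 0.07, adjusted p = 0.00333) and 9842 bp (-0.27 ± 0.06, adjusted p = 0.00138) from the gene, whose own start-site region was higher. Behind Hspa8, a region 2249 bp from the gene (40807451 to 40808552) had 8.68 and 13.3 background reads in GFP replicates 2 and 3, 18.0, 16.6 and 28.5 with Ezh2, and 6.54 and 9.72 with Ezh2-Y726D, with no peak in GFP replicate 1.

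At Hsph1 and Dnajb1 the local background with Ezh2 and with Ezh2-Y726D differed from the same GFP samples in opposite directions. In Ezh2-Y726D against GFP the difference was -0.21 ± 0.08 at Hsph1 (limma adjusted p = 0.0162) and -0.24 ± 0.08 at Dnajb1 (adjusted p = 0.00925). Both calls were lost without GFP replicate 2 and without Ezh2-Y726D replicate 2, and those at Dnajb1 and Hspb1 without the filter on low background, with adjusted p over the alternatives of up to 0.194 at Hsph1, 0.131 at Dnajb1 and 0.082 at Hspb1. Of the 7 regions 1 was then called under each of these alternatives. Counts in that comparison also moved with scaling, since 6 of the 7 regions were called when each list was centred on its median, 5 of them lower.

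The summit pileup gave 0, 1 and 0 calls at the same 7 sites in the 3 comparisons, where few gene ends were called either. With Ezh2 against GFP limma called 0 higher and 0 lower, where 4.64% and 7.90% of 69493 regions and 2.42% and 2.30% of the 14194 regions at gene ends were called, and 0 had an unadjusted p under 0.05. With Ezh2-Y726D against GFP 1 was higher, Hspb1 (0.46 ± 0.17, adjusted p = 0.0484), and 0 lower, where 24.9% and 7.31% of all regions and 6.93% and 3.66% of gene ends were called. With Ezh2 against Ezh2-Y726D 0 were called in either direction, where 7.59% and 29.5% of all regions and 4.88% and 8.97% of gene ends were called, and 0 had an unadjusted p under 0.05. Counts of 0 or 1 in 7 are near the shares at gene ends. In the latter 2 comparisons the median over all regions was 0.18 and -0.20. After each list was centred on its median, the pileup of Hspb1 was no longer called. The call at Hspb1 was also lost without GFP replicate 1, GFP replicate 2, Ezh2 replicate 2 or Ezh2-Y726D replicate 2.

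Called peaks inside and after the genes were compared next. A region was counted when every list of a group held a peak in it and no list of the other group did. With Ezh2 against GFP 3 of the 41 regions were gained (7.32%), where 2.72% of all 189914 regions were, and 0 were lost, where 1.68% were. With Ezh2-Y726D against GFP 0 were gained, where 4.77% were, and 3 were lost (7.32%), where 4.72% were. With Ezh2 against Ezh2-Y726D 6 were present only in Ezh2 (14.6%), where 8.96% were, and 1 only in Ezh2-Y726D (2.44%), where 6.14% were.

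The 3 regions present in every Ezh2 list and in no list of either other group were weak. The largest (chromosome 17, 34968057 to 34970052) was merged from peaks around the 3′ end of Hspa1a, with folds of 2.58, 2.63 and 3.05 and pileups of 40, 45 and 72 reads at the strongest peak of each Ezh2 list. A peak of Ezh2 replicate 1 crossed the end of the gene, the peak of replicate 2 lay after it, and the peaks of replicate 3 lay on either side. The second (chromosome 5, 149634466 to 149635109) lies in the body of Hsph1 next to its start-site region, with folds of 2.04, 2.28 and 2.02. The third (chromosome 2, 34762907 to 34763199) lies 8891 bp from Hspa5, with folds of 3.91, 4.62 and 5.01. Both regions at Hspa1a and Hsph1 stood in a raised local background, from 14.9 to 29.8 reads, while that near Hspa5 stood at the genome-wide level.

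Across the 2798 bp of Hspa1a, 957 bp lay under a peak in some list, and 263 bp under a peak in any GFP or Ezh2-Y726D list. Of the 2810 bp of Hspa1b, 257 bp lay under a peak. Reads from copies cannot always be placed, as said of the promoters of both genes, so a stretch without a peak need not be closed. Downstream of Hspb1 (135893120 to 135893485), in the body of Hsph1 (149622800 to 149623359) and 8723 bp from Hspa8 (40813925 to 40814481), regions had peaks in all 3 GFP lists and in no Ezh2-Y726D list. A region 1417 bp from Hspa8 (40806619 to 40807327) was present in all 3 Ezh2 lists, in GFP replicate 1 and in no Ezh2-Y726D list. The region present only in Ezh2-Y726D against Ezh2 lay 4501 bp from Hsf1 (76472545 to 76472861), with folds of 3.14 and 3.95, and GFP replicate 3 held it as well (2.87).

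**Figure D3:**
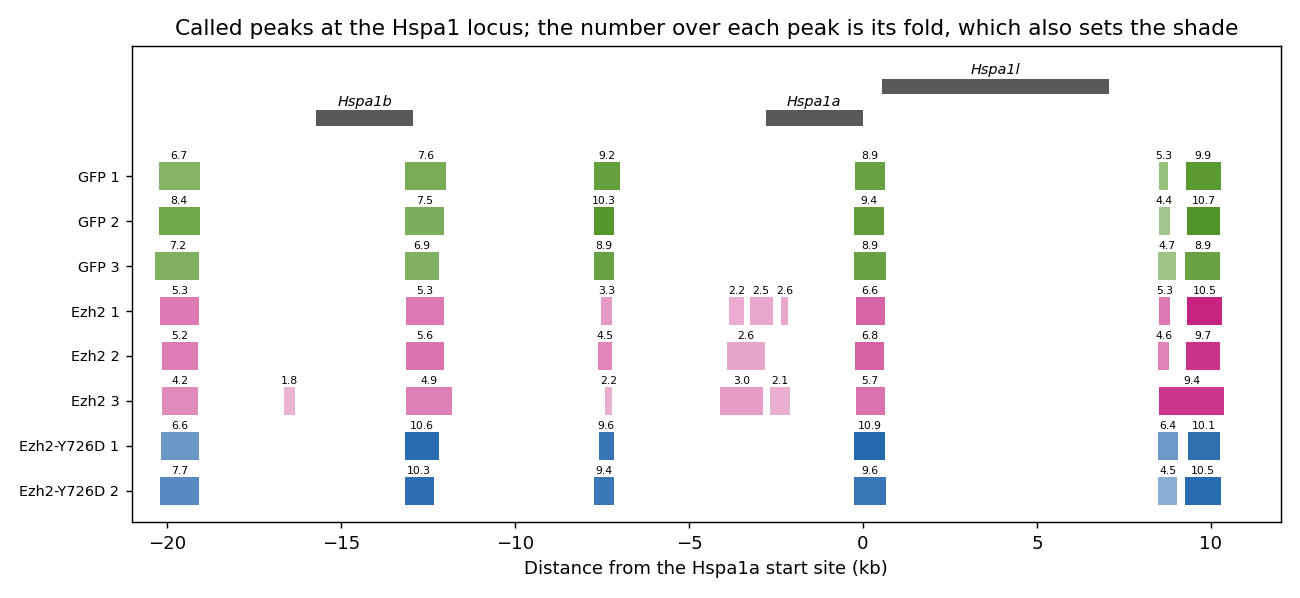
Called peaks of each library at the Hspa1 locus (rows) by distance from the start site of Hspa1a (x axis, kb), with the fold above each peak and gene bodies as grey bars. Around the 3′ end of Hspa1a weak peaks appear in the 3 Ezh2 libraries only, of which that of Ezh2 replicate 1 crosses the end itself, and the peak between Hspa1b and Hspa1a has folds of 2.17 to 4.55 in Ezh2 and 8.94 to 10.3 in the others.

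Counted as peaks per list, the windows around the 10 genes held 30, 32 and 34 peaks in GFP, 40, 37 and 35 with Ezh2, and 26 and 30 with Ezh2-Y726D. Every Ezh2 list held more than any other list, but whole lists differed in length too, with 115710, 112939 and 133674 peaks in GFP, 126271, 127547 and 135895 with Ezh2, and 124666 and 128728 with Ezh2-Y726D. Ezh2 exceeded GFP by 5.33 peaks and Ezh2-Y726D by 9.33 (both p = 0.1, two-sided exact permutation test), and Ezh2-Y726D held 4 fewer than GFP (p = 0.3). With lists of equal length Ezh2 exceeded GFP by 2 peaks (p = 0.2) and Ezh2-Y726D by 6.67 (p = 0.1), both by exact permutation. The smallest p these numbers of samples allow is 0.1. The windows include the Hspa1 locus, which holds the chosen region and the weak peaks seen only with Ezh2 around Hspa1a. These counts and their p-values are therefore not independent of the choice, and no count without the locus is given here.

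Other regions near the genes differed from their start sites. A region 9751 bp from Hspa8 (40791088 to 40791525) had pileups of 38, 37 and 28 reads in GFP, 13, 22 and 20 with Ezh2 and 18 with Ezh2-Y726D replicate 2, with no peak in Ezh2-Y726D replicate 1. It stood at the genome-wide background in all 7 lists, was not tested for rank, and had GFP highest. At 7925 bp from Hsp90aa1 (110681181 to 110683111) the pileup ran from 77 to 94 reads in GFP, 60 to 76 with Ezh2 and 40 to 49 with Ezh2-Y726D, and it was lower than GFP with Ezh2 (-0.45 ± 0.13, limma adjusted p = 0.0296) and with Ezh2-Y726D (-0.72 ± 0.15, adjusted p = 0.00172). Its fold rank was not called, with a difference of -0.28 ± 0.15 (adjusted p = 0.357) for Ezh2. The region 3604 bp from Hsph1 (149611255 to 149613239) was higher in pileup with Ezh2-Y726D than with GFP (0.99 ± 0.18, adjusted p = 0.000825) and than with Ezh2 (Ezh2 minus Ezh2-Y726D -0.88 ± 0.18, adjusted p = 0.0011), and a region 4991 bp from Hsph1 on the other side (149641489 to 149643145) was higher than with GFP by 0.52 ± 0.15 (adjusted p = 0.014).

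Regions at the ends of other gene groups were set beside the family. Among 44 other chaperone genes 51 regions were tested for fold rank, and with Ezh2 against GFP 0 were higher and 2 lower (0% and 3.92%), where 0.465% and 0.571% of the 14194 regions at gene ends were called. The 2 were at Hspa14 (-1.75 ± 0.23, limma adjusted p = 0.00718), an Hsp70 relative, and Bag1 (-1.24 ± 0.30, adjusted p = 0.0479), a nucleotide exchange factor of Hsp70. With Ezh2-Y726D against GFP, where 0.655% and 1.63% of gene ends were called, 1 was higher, at Stip1 (1.14 ± 0.23, adjusted p = 0.0174), which joins Hsp70 to Hsp90, and 1 lower, at Hspa14 (-1.94 ± 0.25, adjusted p = 0.00362). With Ezh2 against Ezh2-Y726D, where 3.30% and 2.50% of gene ends were called, 0 were higher and 3 lower, at Stip1 (-1.38 ± 0.23, adjusted p = 0.00475), Hsf4 (-0.84 ± 0.22, adjusted p = 0.0314) and the Hsp40 gene Dnaja1 (-0.76 ± 0.20, adjusted p = 0.0339). Over the 20 genes of the unfolded protein response 23 regions were tested, and limma called 0 in each comparison, with 0, 0 and 1 at an unadjusted p under 0.05.

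In local background, 12 of 44 regions of the other chaperones were higher and 1 lower with Ezh2 against GFP, 8 higher and 6 lower with Ezh2-Y726D against GFP, and 18 higher and 5 lower with Ezh2 against Ezh2-Y726D. Of the 21 regions of the unfolded protein response, 0 were called with Ezh2 against GFP by limma (2 at an unadjusted p under 0.05), 4 were lower with Ezh2-Y726D against GFP and 5 higher with Ezh2 against Ezh2-Y726D. Immediate early genes, which are also induced within minutes and hold a paused polymerase, gave 13 of 19 regions higher and 0 lower, 0 higher and 6 lower, and 15 higher and 0 lower in the 3 comparisons. These 19 regions lie at the ends of 12 genes, and some, as at Fosb and Junb, are close neighbours that can share background reads. At all 12376 regions at ends of protein-coding genes, 14.4% were higher and 8.14% lower with Ezh2 against GFP, 17.3% and 20.7% with Ezh2-Y726D against GFP, and 29.0% and 20.1% with Ezh2 against Ezh2-Y726D. The medians for the 7 heat shock start sites outside the Hspa1 locus were 0.29, -0.12 and 0.35, for immediate early genes 0.22, -0.14 and 0.35, for other chaperones 0.11, -0.03 and 0.12, and for all gene ends 0.03, -0.03 and 0.05. Beside these, of the 4 T cell regions with enough background 2 were higher and 0 lower, 1 higher and 3 lower, and 3 higher and 1 lower in the 3 comparisons. Of 8 rod regions 8, 7 and 4 were lower and 0 were higher. Of 11 RGC regions 6 were higher and 2 lower, 4 higher and 3 lower, and 4 higher and 3 lower, with a median of 0.22 in Ezh2 against GFP. Of 9 amacrine cell regions 3 were higher and 3 lower, 7 higher and 0 lower (median 0.76), and 0 higher and 9 lower (median -0.69). Of 12 Müller glia regions 1 was higher and 4 lower, 2 higher and 1 lower, and 1 higher and 6 lower. Of 6 bipolar cell regions 1 was higher and 3 lower, 0 higher and 4 lower, and 3 higher and 1 lower. Of 2 regions of microglia and macrophages 0 were called, 1 was lower and 1 was higher. Markers of several cell types thus differed between the groups in local background, and their part in the heat shock values was not tested.

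**Figure D4:**
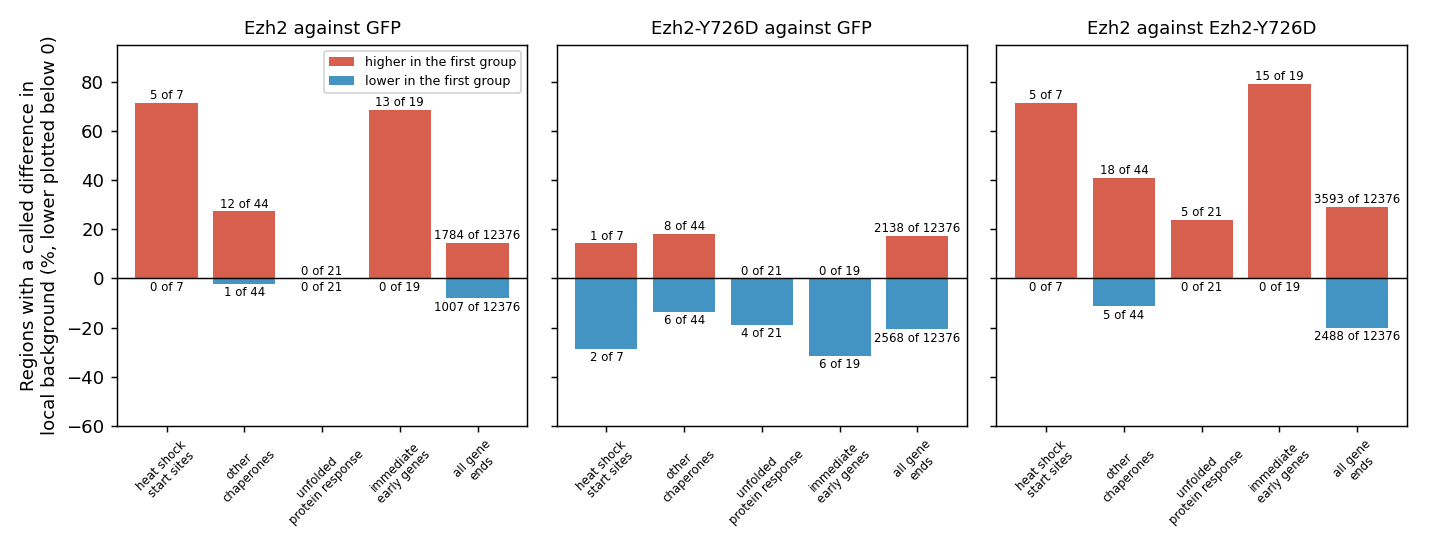
Share of regions with a called difference in local background (y axis, percent, lower plotted below 0) for each gene group (x axis) in the 3 comparisons, with the count over each bar. With Ezh2 against GFP 5 of 7 heat shock start sites outside the Hspa1 locus and 13 of 19 regions of immediate early genes are higher, against 1784 of 12376 at all gene ends. The 19 regions lie at 12 genes, and neighbours among them can share background reads.

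The regions most like the chosen one were sought over the 8 lists among 32425 regions whose scores ranged over at least 1 unit. The highest Pearson correlations, which are a description over 8 libraries, were near Chst9 (r = 0.995), inside Apc2 (0.992), inside Slco2a1 (0.992), inside Cdh2 (0.991) and inside Slc39a10 (0.989). At Slco2a1 (chromosome 9, 103054836 to 103055735) the folds ran from 9.89 to 11.1 with GFP, 4.36 to 6.92 with Ezh2 and 10.0 to 10.4 with Ezh2-Y726D.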

How the data were processed

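ATAC-seq peak lists of sorted, injured RGCs were used, 3 with AAV2-GFP, 3 with AAV2-Ezh2 and 2 with AAV2-Ezh2-Y726D. The authors called peaks per sample on GRCm38, and the submitters' processing notes name cutadapt, Bowtie2, SAMtools, Picard, MACS2 and deepTools, whose settings are not given in the sources used here. Tags in the peak names mark a mapping quality of 10, sorting and removal of duplicates. Each deposited list gives, for every peak, a fold (the ratio of summit pileup to local background), a −log10 p-value, a −log10 q-value and a score. The scores were not used, and depth is unknown.

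Peaks of all lists were merged into regions. Heat shock regions overlapped a gene of the family or lay within 10 kb of it, and a start-site region covered an annotated start or, for Hspa8, Hsp90aa1 and Hsf1, a gene end. Folds were ranked within each list over the 69493 regions with a peak in all 8 lists and turned into normal scores. Groups were compared with limma 3.58.1 in R 4.3.3 in 1 fit of all 8 samples, two-sided, with Benjamini-Hochberg adjustment over all regions and a threshold of 0.05. Numbers of peaks were compared with two-sided exact permutation tests. The pileup and local background were recovered from the deposited fold and −log10 p-value, and their fits on the log2 scale, over regions with a mean log2 local background of at least 0.5 in the case of the background, were added after seeing the data. The chosen region was among the 69493 regions fitted, but no p is given for it and it is left out of the counts of called heat shock regions. Its peaks are in the numbers of peaks per list.

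The fits were tested on simulated data in which 200 regions were shifted. More were called by fold rank in the data, such as 9699 in Ezh2 against Ezh2-Y726D. The adjusted p depends on how many regions differ, so the shares recovered hold for the simulated setting only. At a shift of 2 normal-score units the fold-rank fit recovered 86%, 72.5% and 73% for GFP against Ezh2, GFP against Ezh2-Y726D and between both forms of Ezh2 (69493 regions), and 0% at a shift of 1. At a shift of 1 log2 unit the local background fit recovered 100%, 99.5% and 100% (37642 regions) and the pileup fit 75.5%, 55% and 54% (69493 regions).

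The genes and lists were chosen with earlier results of these data known. By the rule for named genes, every member was described with its start-site region and each region limma called or that was present in 1 group only, and other chaperone or unfolded protein response genes were named where limma called a region at a gene end, at most 6 per comparison, with the 5 regions most like the chosen one. Promoter sequences and gene positions came from RefSeq tables of GRCm38.p6. Alternatives were the measure ranked, the set of regions, list length, the q-value threshold, gene windows, a replicate block and leaving out each library.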

Additional observations from a re-analysis of the deposited data

Results flagged for a closer look

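At 2 start-site regions outside the Hspa1 locus, Ezh2 and Ezh2-Y726D differed from GFP in opposite directions, each past the threshold, and the difference between them was itself tested by limma. At Hsph1 the local background was higher with Ezh2 than with Ezh2-Y726D by 0.595 on the log2 scale (adjusted p = 6.29e-08), with all 3 Ezh2 libraries above and both Ezh2-Y726D libraries below the 3 GFP libraries. At Dnajb1 it was higher by 0.618 (adjusted p = 5.49e-08), with the same order of libraries. Both differences passed in 11 of 11 alternatives, between 0.54 and 0.67 at Hsph1 and between 0.56 and 0.70 at Dnajb1. The fall with Ezh2-Y726D against GFP was less firm, passing in 9 of 11 alternatives at Hsph1 and in 8 of 11 at Dnajb1. Such opposite calls were not particular to these genes. Against GFP, the other chaperones Stip1 (0.59 with Ezh2, -0.84 with Ezh2-Y726D) and Bag3 (0.34 and -0.36) had them. So did the T cell marker Cd3d (1.12 and -0.998) and the RGC marker Isl1 (0.34 and -0.41). The share of all regions with opposite calls was not counted.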

How the results depend on the processing

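The fits of pileup and local background, the rank by summit pileup, the peak-name block and the counts without the Hspa1 locus were chosen after seeing the data. Heat shock regions called by fold rank in Ezh2 against GFP numbered 3, and 0 by −log10 p-value rank, 6 with a −log10 q-value of at least 5, 0 by summit pileup rank, 0 without the Hspa1 locus and 0 to 3 with a library left out. In Ezh2-Y726D against GFP 1 became 0 with regions in at least 5 lists, without the locus and with any 1 library left out (0 to 0). In Ezh2 against Ezh2-Y726D 4 became 1 by summit pileup, 2 without the locus and 1 to 5 with a library left out. Ranked by summit pileup the differences took the other sign at Hspa1b (0.141, -0.0335 and 0.17 in the 3 comparisons), at Hspa1a and Hspa1l (0.0516 in Ezh2 against GFP and 0.25 in Ezh2 against Ezh2-Y726D) and at Hsph1 (0.0555 in Ezh2 against Ezh2-Y726D). In Ezh2 against GFP the sign also turned, with no call under either measure, at Hspa8 (0.0705), Hspa5 (0.0677), Hsp90aa1 (0.0537), Hspb1 (0.217) and Hsf1 (0.0437), so that only Hsph1 and Dnajb1 of the 9 start-site regions kept it. Without a call it turned too in Ezh2-Y726D against GFP at Hspa1a and Hspa1l (-0.194), Hsph1 (-0.151), Dnajb1 (-0.022), Hspa8 (-0.0691) and Hsf1 (0.0146), and in Ezh2 against Ezh2-Y726D at Hsp90aa1 (0.0326) and Hspa8 (0.14). The pileup is the count of reads at the summit, without division by the local background, and no background is subtracted from it.

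Regions present in 1 group only went from 3, 3 and 7 to 1, 0 and 4 at a −log10 q-value of at least 5, and the 7 to 4 with lists of equal length. Leaving out a library gave 3 to 5 (5 without GFP replicate 1), 3 to 5 (5 without Ezh2-Y726D replicate 2) and 7 to 10. The differences in peak number ran from 4 to 6.5, -6 to -2 and 7.33 to 11.3. Start-site regions called in local background in Ezh2-Y726D against GFP over all 9 went from 5 to 8 with lists centred, to 3 without the filter and to 3 without the Hspa1 locus, and ran from 3 to 5 with a library left out, against 6 to 8 in Ezh2 against GFP and 6 to 7 in Ezh2 against Ezh2-Y726D. Outside the locus Ezh2 against GFP gave 5 of 7, and 3 without the filter. In summit pileup they ran from 0 to 1 in Ezh2-Y726D against GFP, and 2 instead of 0 were called in Ezh2 against Ezh2-Y726D with lists centred. For the other changes the cause was not tested.

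The replicate numbers did not pair the samples, since same-numbered samples correlated by at most 0.0478. With a replicate block by the numbers in the titles 2 regions were called in Ezh2 against GFP and 0 in Ezh2-Y726D against GFP, and with a block by the numbers in the peak names, which differ for Ezh2-Y726D, 1 and 0.

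With 2 or 3 lists a group, shifts of fold rank of 1 unit were not recovered on simulated data with 200 of 69493 regions shifted. In the data 9699 regions were called in Ezh2 against Ezh2-Y726D. There limma called a smaller difference, -0.81 at Hsph1 (adjusted p = 0.0262). The adjusted p depends on how many regions differ, so the simulation does not show which shifts the fit misses in the data. Peaks below the calling threshold, read totals and the setting of the background window are not known here. Regions close together share background reads.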
